A study of Mus musculus with 38 samples.

Results

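The 9 genes described here encode polo-like kinase 2 and the Rap pathway that it acts on at the synapse: the kinases Plk2 and Plk3, the SPAR family of Rap inhibitors Sipa1l1, Sipa1l2 and Sipa1l3, and the small GTPases Rap1a, Rap1b, Rap2a and Rap2b. They were chosen by symbol from the 23420 genes counted in each library, and all 9 had a row. RNA was taken from dentate gyrus granule cells of 19 male Arc::dVenus mice on a C57BL/6J background, aged 8 to 12 weeks. All of them carry a transgene in which the promoter of Arc controls dVenus, a short-lived fluorescent protein, so that dVenus+ marks cells with recent or sustained Arc promoter activity. The groups were 12 mice killed 24 h after contextual fear conditioning (FC), 4 mice that went through the same protocol without a shock 24 h before (NS), and 3 home-cage mice never placed in the chamber (HC). From every mouse 10 dVenus+ cells were aspirated and pooled into 1 library and 10 neighboring dVenus- cells into another, giving 38 libraries. The question is whether the members differed between dVenus+ and dVenus- cells of the same mouse after each training history.

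Plk2, also called Snk, is an activity-induced kinase of excitatory neurons. It phosphorylates SPAR (Sipa1l1), a postsynaptic protein that inactivates Rap and binds the scaffold PSD-95, and thereby marks SPAR for ubiquitination and degradation. Plk2 is known for its part in homeostatic synaptic scaling, in which neurons with prolonged high activity weaken and lose excitatory synapses, and Rap GTPases are known to promote the removal of AMPA receptors and the shrinkage of spines. These RNA counts measure transcript levels and not the phosphorylation or degradation of the proteins.

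The sequences just upstream of the transcription starts are shown for the genes that passed the test in FC mice, Plk2 and Sipa1l2, for the kinase most like Plk2 in the set, Plk3, and for Rap1b, the other member with a full cAMP response element. They are the 250 bases before the RefSeq start on the gene's strand, in GRCm38.p6, which has the coordinates of mm10. Capitals mark the palindromic cAMP response element TGACGTCA in Plk2 and Rap1b, its shorter form TGACG in Plk3, and the CCAAT box in Sipa1l2. The windows are chr13:110394794-110395043 (plus strand) for Plk2, chr4:117133964-117134213 (minus) for Plk3, chr8:125569864-125570113 (minus) for Sipa1l2 and chr10:117845975-117846224 (minus) for Rap1b.
Plk2: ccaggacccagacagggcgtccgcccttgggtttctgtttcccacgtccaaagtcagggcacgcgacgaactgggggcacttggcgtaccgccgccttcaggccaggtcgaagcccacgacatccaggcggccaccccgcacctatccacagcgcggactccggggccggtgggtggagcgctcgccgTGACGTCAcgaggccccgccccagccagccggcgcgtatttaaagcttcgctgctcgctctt
Plk3: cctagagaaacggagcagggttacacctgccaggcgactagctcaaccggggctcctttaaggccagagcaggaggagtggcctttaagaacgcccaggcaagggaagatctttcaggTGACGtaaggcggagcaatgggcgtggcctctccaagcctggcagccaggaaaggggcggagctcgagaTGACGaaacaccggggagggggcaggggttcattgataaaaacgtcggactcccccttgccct
Sipa1l2: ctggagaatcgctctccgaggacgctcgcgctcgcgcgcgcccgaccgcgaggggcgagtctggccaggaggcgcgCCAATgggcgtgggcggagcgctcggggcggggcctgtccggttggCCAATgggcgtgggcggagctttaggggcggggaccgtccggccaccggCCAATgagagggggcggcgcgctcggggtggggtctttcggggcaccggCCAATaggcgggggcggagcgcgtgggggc
Rap1b: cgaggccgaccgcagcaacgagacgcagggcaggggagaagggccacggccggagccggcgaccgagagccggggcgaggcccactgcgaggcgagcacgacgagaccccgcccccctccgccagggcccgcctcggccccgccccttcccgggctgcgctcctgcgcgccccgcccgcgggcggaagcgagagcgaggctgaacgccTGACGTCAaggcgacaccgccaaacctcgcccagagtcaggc

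The letters TGACGTCA began 62 bases before the start of Plk2 and 42 bases before that of Rap1b, and 1.55% of 32851 such upstream windows of 27025 mouse genes hold them on either strand. Plk3 had no TGACGTCA but had TGACG, which is also contained in the full element, at 132 and 63 bases before its start, and 17.8% of the windows hold TGACG on either strand. Sipa1l2 had CCAAT 4 times on its own strand, at 174, 128, 79 and 30 bases before its main start, against 33.8% of windows with at least 1 on either strand. No TGACG was found in the windows of Sipa1l1, Sipa1l2, Sipa1l3, Rap2a or Rap2b. All windows of Sipa1l1 and Sipa1l3 lie inside the RefSeq genes. The start used for Sipa1l3 was 29505460, whereas RefSeq places the outer end of this minus-strand gene at 29519161. Those used for Sipa1l1 were 82170016 and 82311349, and its outer RefSeq start is 82169377. The bases before these outer starts were not searched. TATAAA, held by 12.4% of windows, was found in 1 window, that of an internal start of Sipa1l1. There it lay on the strand opposite to the gene, 174 bases before the start. The CArG box, held by 1.47%, was found in none. Rap1a had no window in the table. A match is a description of letters and not a measured binding site.

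In the annotation, Plk2 lies on chromosome 13 (110395046 to 110400844, plus strand, 14 exons after merging transcripts) and Plk3 on chromosome 4 (117128655 to 117133963, minus strand, 15 exons). The SPAR genes are long: Sipa1l1 spans 282.5 kb of chromosome 12 (82169320 to 82451786), Sipa1l2 151.7 kb of chromosome 8 (125418063 to 125569808) and Sipa1l3 198.3 kb of chromosome 7 (29320372 to 29518641). Rap1a is on chromosome 3 (105727267 to 105801336), Rap1b on chromosome 10 (117813871 to 117846035), Rap2a on chromosome 14 (120478444 to 120507194) and Rap2b, with a single merged exon, on chromosome 3 (61361638 to 61368430). A gene on the opposite strand overlaps Plk3 (Tctex1d4) and Rap2b (B430305J03Rik). The libraries did not keep strand, so reads in such overlaps cannot be told apart. Rap1a and Rap1b are near-identical proteins, and reads that aligned to more than 1 place were not counted. Whether this changes the split between their levels was not tested.

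Between 1352288 and 18394761 reads per library were counted on genes (median 8013005), and 7037 to 13286 genes had a read. Arc itself was higher in dVenus+ cells in 19 of 19 mice, with a median of 829.8 normalized CPM (counts scaled to the library total and by TMM over all libraries) in FC dVenus+ and 0.565 in FC dVenus- cells. The FC dVenus- libraries of mice 06, 07 and 14 nevertheless held many Arc reads, up to 172 normalized CPM, and the FC dVenus+ libraries of mice 03 and 05 had the fewest uniquely aligned reads. The FC mice bear 3 series of sample IDs with 2, 4 and 6 mice, and the NS and HC mice share another, so that the training histories of FC against NS or HC mice cannot be told apart from the ID series. Of 7 granule cell markers, all tested in FC mice, 4 were lower in dVenus+ cells (C1ql2, Calb1, Ncald and Rfx3) and none was higher. Their summed level was lower in dVenus+ cells in 12 of 12 FC mice (median 429 against 1709 normalized CPM), 4 of 4 NS and 3 of 3 HC mice. Of 7 microglial markers 5 were tested and 2 were higher (C1qa and Csf1r), and their sum was higher in dVenus+ cells in 10 of 12 FC mice, with a range of 20.6 to 1391 normalized CPM against 1.12 to 408. The summed microglial level was also higher in dVenus+ cells in 4 of 4 NS mice (median 500 against 22.4 normalized CPM) and 2 of 3 HC mice (800 against 301). Tmem119 was at 0 in most FC libraries. Of the other lists, none of 2 tested astrocyte and 3 tested oligodendrocyte markers was called in FC mice, no endothelial marker reached the count filter, and 1 of 3 tested interneuron markers, Gad1, was lower. The 1 tested marker of mossy or pyramidal cells was not called in FC mice. The nuclear-retained RNAs Malat1, Meg3 and Neat1 summed to a higher level in dVenus+ cells in 11 of 12 FC mice (median 33132 against 15501 normalized CPM). They did so too in 4 of 4 NS mice (35544 against 9189) and 3 of 3 HC mice (50704 against 4626). The part of these shifts in the results below was not tested.

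Plk2 rose in dVenus+ cells of FC mice. In these mice its level was 267 to 1116 normalized CPM in dVenus+ libraries (median 664, mean 657 ± 267 SD, n = 12) and 18.9 to 293 in dVenus- libraries (median 121, mean 128 ± 80.0 SD, n = 12). It was higher in dVenus+ cells in 12 of 12 mice, by a log2 difference of 1.48 in mouse 12 to 4.59 in mouse 06. The size in a single mouse depends on TMM, which raised some libraries and lowered others beyond their library total. In mouse 05, 497 of 5266354 reads stood at 280 normalized CPM in dVenus+ and 1059 of 12182756 at 77.2 in dVenus- cells. The dVenus+ library of mouse 03 was instead scaled down, with 1800 of 1352288 reads at 894. The groups overlapped only through the dVenus- library of mouse 12, at 293, which lay above the dVenus+ libraries of mice 04 and 05 at 267 and 280. The fitted log2 fold change was 2.54 ± 0.31 (SE), which is 5.81-fold, and passed the test (edgeR quasi-likelihood test, adjusted p = 1.27e-05), at rank 7 by p among 9709 genes. In pools of 10 cells, a higher or lower level through the number of expressing cells and through the RNA per cell cannot be told apart.

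**Figure D1:**
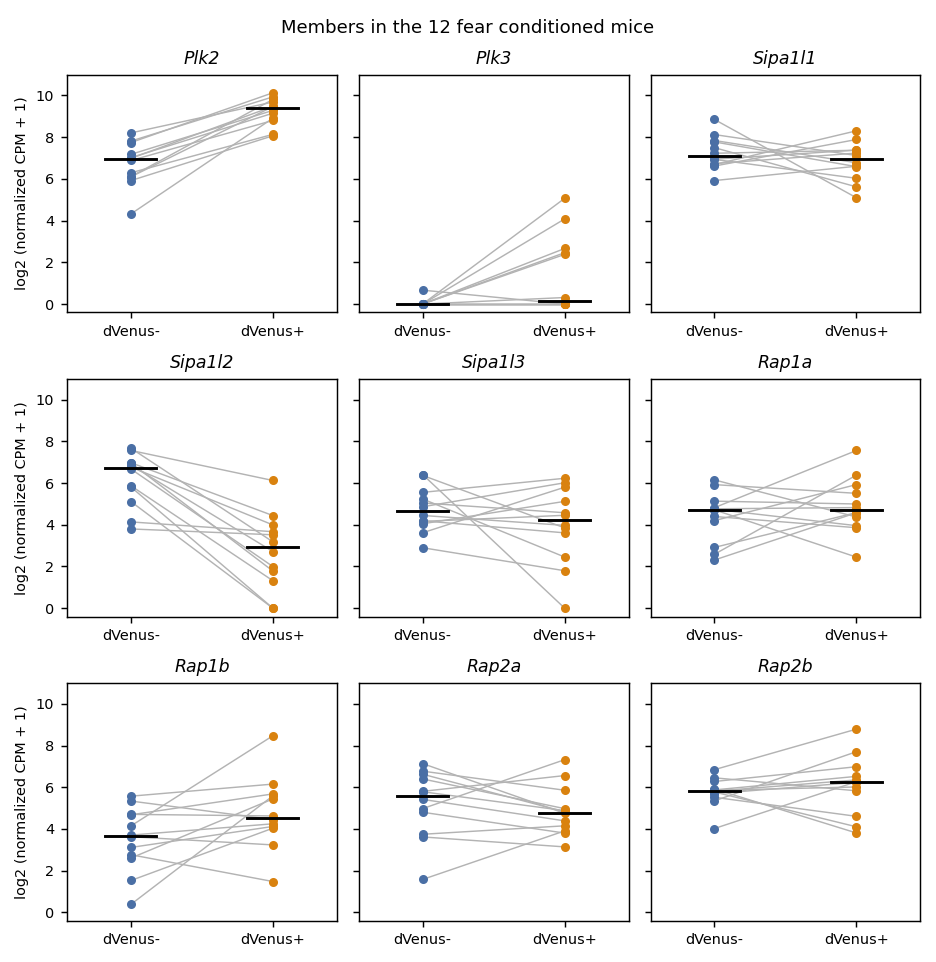
Each panel plots log2 (normalized CPM + 1) of 1 gene in the dVenus- (blue) and dVenus+ (orange) libraries of the 12 FC mice. Grey lines join the libraries of a mouse and black bars are group medians. All 12 lines rise for Plk2 and all 12 fall for Sipa1l2, whereas lines of the other SPAR and Rap genes go both ways.

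Plk3, a second polo-like kinase that is also stress- and activity-induced, was rare. In FC mice 6 of 12 dVenus+ libraries had a Plk3 read, with 394 counts in mouse 13, 67 in mouse 11, 55 in mouse 06, 32 in mouse 03, 8 in mouse 05 and 2 in mouse 12. A single dVenus- library had any, with 11 counts in mouse 10, whose dVenus+ library had 0. The highest level of Plk3 was 32.5 normalized CPM in mouse 13, where Plk2 was at 706. Plk3 stayed below the count filter in all 3 groups and so was not among the genes tested. The fit without the filter gave a log2 fold change of 5.20 ± 1.80 (SE, adjusted p = 0.181, edgeR), which did not pass. NS mice had a single count of Plk3 in 1 of 8 libraries and HC mice none in 6. A count of 0 allows up to 3 counts per library, 0.132 to 1.69 normalized CPM over the 38 libraries, and covers counting error only.

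Sipa1l2, a SPAR relative that also inactivates Rap, fell in dVenus+ cells of FC mice, while Sipa1l1 (SPAR itself) and Sipa1l3 did not pass the test. In dVenus- libraries Sipa1l2 was at 12.9 to 203 normalized CPM (median 104, mean 94.9 ± 62.0 SD, n = 12), and in dVenus+ libraries at 0 to 68.7 (median 6.82, mean 12.3 ± 18.9 SD, n = 12). It was lower in dVenus+ cells in 12 of 12 mice. The dVenus+ libraries of mice 01 and 05 had no Sipa1l2 read, and the groups overlapped, with the dVenus+ library of mouse 04 at 68.7 and the dVenus- libraries of mice 06 and 10 at 12.9 and 16.6. Mice 06 and 10 had the smallest differences. The fitted log2 fold change was -3.41 ± 0.67 (SE, adjusted p = 0.0026, edgeR), or 10.6-fold lower, at rank 62 of 9709 genes by p.

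Sipa1l1 had the highest median of the SPAR genes per length, and its levels overlapped widely between the cell types. In FC mice the lowest, median and highest dVenus+ library had 33.1, 123 and 315 normalized CPM, those of dVenus- cells 59.5, 135 and 459, and 6 of 12 mice were higher in dVenus+ cells. Its log2 fold change was -0.33 ± 0.43 (SE, adjusted p = 0.766, edgeR). Sipa1l3 had a median of 17.8 normalized CPM in dVenus+ libraries against 24.4 in the others, was higher in dVenus+ cells in 5 of 12 mice, and gave -0.39 ± 0.66 (SE, adjusted p = 0.829). A p that misses the threshold does not show that these levels are alike. Divided by merged exon length, Sipa1l1 made up a median of 51.6% of the summed SPAR family level in FC dVenus- libraries, Sipa1l2 28.3% and Sipa1l3 9.00%. In FC dVenus+ libraries the medians were 77.4%, 4.70% and 12.1% in that order, with ranges over mice of 31.6 to 100% for Sipa1l1 and 0 to 34.2% for Sipa1l2.

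None of the 4 Rap GTPases passed the test in FC mice. These proteins cycle between a GTP-bound active and a GDP-bound inactive form, which the RNA level does not report. Rap1b had the largest estimate, 1.21 ± 0.66 on the log2 scale (SE, adjusted p = 0.344, edgeR), with a median of 22.2 normalized CPM in dVenus+ libraries (1.79 to 353) against 11.7 (0.305 to 46.6). The 12 pairs went both ways, with 8 higher in dVenus+ cells. For Rap1a the median was 25.2 normalized CPM with dVenus and 25.5 without, 6 of 12 mice higher, and a log2 fold change of 0.54 ± 0.66. For Rap2a these medians were 26.6 and 47.9, 4 of 12 mice higher, and -0.39 ± 0.55. For Rap2b they were 75.1 and 56.0, 8 of 12 mice higher, and 0.36 ± 0.49, and the adjusted p of these 3 genes ran from 0.746 to 0.784. Dividing by the merged exon length of GENCODE put the 4 Rap genes close to each other, with medians of 6.35 to 11.1 normalized CPM per kb in FC dVenus+ and 4.30 to 11.4 in FC dVenus- libraries. Plk2 was at 237 and 43.2 on the same scale. Reads were counted on NCBI genes, and RefSeq starts Rap2b at 61364507 where GENCODE starts it at 61361638. The level of Rap2b per kb thus depends on the annotation and would be higher with the shorter length.

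In FC mice, 2 of the 8 members tested therefore passed, 1 higher and 1 lower, beside 4.35% of all 9709 genes tested in either direction, 1.50% higher and 2.84% lower. The members were chosen with earlier results of these data known, so their count beside this share is a description. The median log2 fold change of all genes tested was -0.11. As a second test of single members, which shares no estimate of spread between genes, each mouse's difference in log2 (normalized CPM + 1) was given either sign, in all combinations. The mean difference was 2.52 ± 0.90 for Plk2 and -3.46 ± 1.90 for Sipa1l2 (SD, n = 12 mice), each with the smallest p the design allows (two-sided exact permutation test of signs, p = 0.000488). Plk3 gave 1.36 ± 1.90 (exact permutation p = 0.0469, higher in 6 mice and lower in 1), and its p rose to 0.0625 or 0.0938 without any of the 6 mice with a read in dVenus+ cells. Rap1b gave 1.28 ± 2.04 (exact permutation p = 0.0542), and the other 5 members had exact permutation p from 0.312 to 0.454. These 9 p-values are unadjusted.

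Within the FC mice of 1 ID series, the 6 mice of the largest gave 2.33 ± 0.36 for Plk2 (adjusted p = 0.00921) and -3.69 ± 0.82 for Sipa1l2 (adjusted p = 0.0923, edgeR), and 1 member was called. The 4 mice of the next gave 2.55 ± 0.83 and -2.48 ± 1.33 (adjusted p = 0.295 and 0.506), and none was called. No fit was run on the remaining 2 mice, whose Plk2 differences were 2.11 and 3.70 and whose Sipa1l2 differences were -5.11 and -2.77 on the log2 scale. Without mice 06, 07 and 14 the log2 fold changes were 2.39 for Plk2 and -3.46 for Sipa1l2 and both passed (adjusted p = 0.000447 and 0.0124), and without mice 03 and 05 they were 2.44 and -3.27 and both passed (adjusted p = 0.000102 and 0.0105).

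In NS mice no member passed the test, beside 0.0489% of 8187 genes called. Plk2 was at 108, 20.0, 201 and 333 normalized CPM in the dVenus+ libraries of mice 18, 19, 20 and 21 and at 17.5, 103, 105 and 113 in their dVenus- libraries. It was thus higher in dVenus+ cells in 3 of 4 mice and lower in mouse 19, with a log2 fold change of 0.87 ± 1.08 (SE, adjusted p = 0.837, edgeR). Sipa1l2 was at 42.2, 0.893, 18.2 and 3.97 in dVenus+ and at 0.305, 3.43, 53.4 and 48.2 in dVenus- libraries, lower in 3 of 4 mice and far higher in mouse 18 (-0.74 ± 1.90, adjusted p = 0.927). Rap1b was higher in dVenus+ cells in 4 of 4 NS mice, at 5.66, 14.6, 156 and 7.71 against 0.305, 2.35, 15.7 and 0 normalized CPM. Its log2 fold change of 3.52 ± 1.79 did not pass in edgeR (adjusted p = 0.585) and passed with DESeq2's Wald test (4.23, adjusted p = 0.0457). It was the only member that DESeq2 called, beside 8.13% of all genes tested in NS mice. The other 5 members tested had log2 fold changes from -1.33 (Rap2b) to 0.72 (Rap2a) and adjusted p from 0.772 to 0.990.

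In HC mice no member passed either, with 0% of 7588 genes called by edgeR, 532 genes at an unadjusted p under 0.05 and 625 called by DESeq2 (8.24%), none of them a member. Even Arc, higher in 3 of 3 HC mice (8.33 ± 1.61, SE), did not pass (adjusted p = 0.455, edgeR), so a missed threshold does not show equal levels. Plk2 was at 145, 261 and 211 normalized CPM in the dVenus+ libraries of mice 15, 16 and 17 and at 174, 10.9 and 191 in their dVenus- libraries. The log2 fold change of 1.02 ± 1.38 (SE, adjusted p = 0.851, edgeR) came from mouse 16, without which it was -0.20. Sipa1l2 was at 8.50, 0 and 98.6 in dVenus+ and at 94.3, 6.25 and 11.7 in dVenus- libraries, lower in 2 of 3 mice (-1.04 ± 2.57, adjusted p = 0.930). The other 6 members tested ran from -1.77 (Rap1b) to -0.32 (Sipa1l1) with SE from 1.52 to 3.10.

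**Figure D2:**
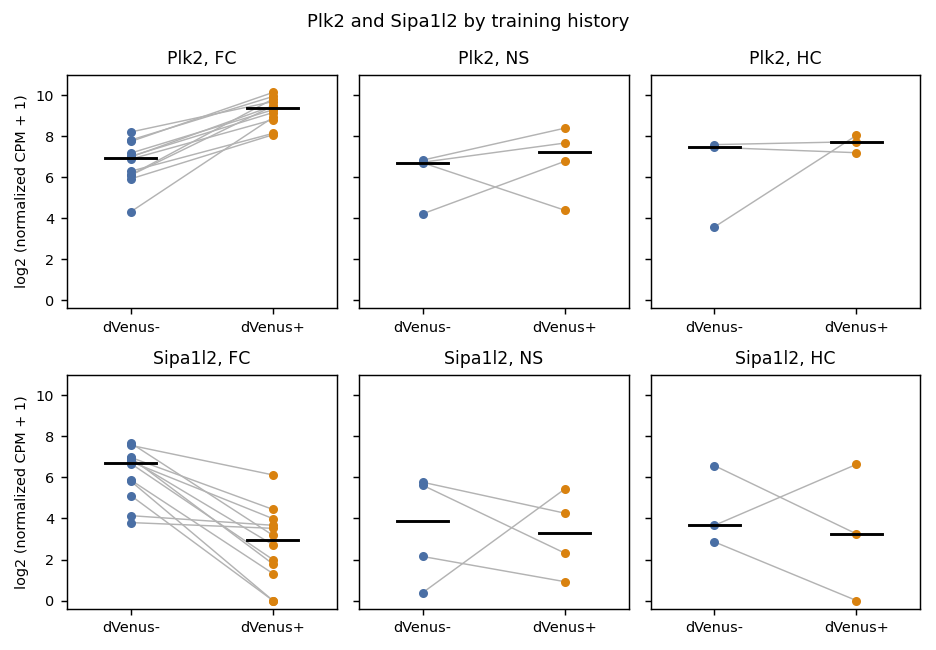
The panels plot log2 (normalized CPM + 1) of Plk2 (top) and Sipa1l2 (bottom) in dVenus- (blue) and dVenus+ (orange) libraries of 12 FC, 4 NS and 3 HC mice, with grey lines joining the libraries of a mouse and black bars at the medians. Lines run both ways in NS and HC mice, and 1 dVenus- library in each of these groups lies far below its group for Plk2.

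Plk2 was higher and Sipa1l2 lower together in 12 of 12 FC, 2 of 4 NS and 1 of 3 HC mice. By group median, Plk2 fell in the order FC dVenus+ (664 normalized CPM), HC dVenus+ (211), HC dVenus- (174), NS dVenus+ (155), FC dVenus- (121) and NS dVenus- (104). The lowest FC dVenus+ library, at 267, lay just above the highest HC dVenus+ library, at 261, and below the highest NS dVenus+ library, at 333, and the ranges of all neighbors further down this order overlapped. For Sipa1l2 the order was FC dVenus- (104), NS dVenus- (25.8), HC dVenus- (11.7), NS dVenus+ (11.1), HC dVenus+ (8.50) and FC dVenus+ (6.82), with overlapping ranges between all neighbors. Levels of FC against NS or HC mice were not tested, since they cannot be told apart from the ID series.

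Whether the within-mouse change differed between training histories was tested as an interaction over 14075 genes. No member had an interaction of FC with NS or HC mice, beside 0% of genes called in each, with 1152 and 1304 genes at an unadjusted p under 0.05 (edgeR). The change of Plk2 was larger in FC than in NS mice by 1.64 ± 0.86 (SE, adjusted p = 0.637) and than in HC mice by 1.35 ± 1.03 (adjusted p = 0.690) on the log2 scale. That of Sipa1l2 differed by -2.60 ± 1.69 (adjusted p = 0.708) from NS and by -2.62 ± 2.15 from HC mice (adjusted p = 0.719). The rise of Plk2 and the fall of Sipa1l2 in FC mice are therefore not shown to differ from the changes in the other groups.

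**Figure D3:**
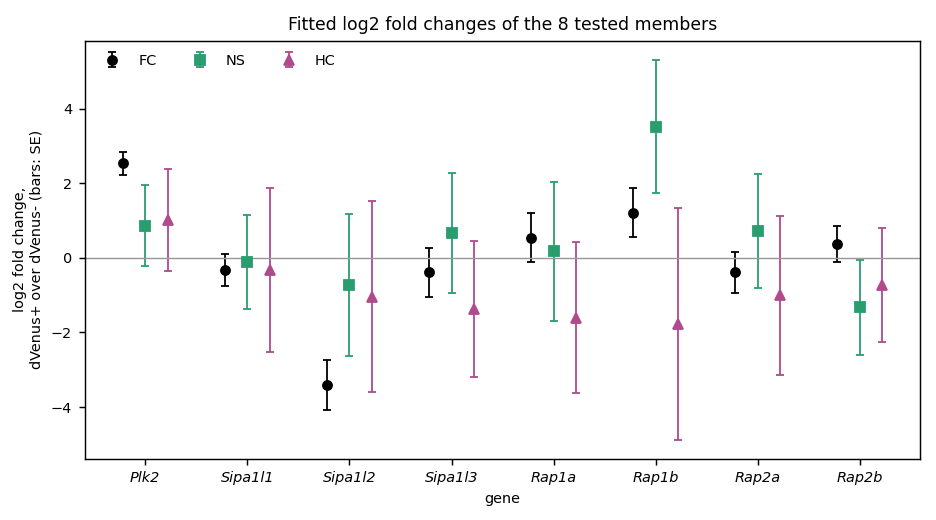
Fitted log2 fold changes of dVenus+ over dVenus- cells (points) with their standard errors (bars) for the 8 members tested in FC (circles), NS (squares) and HC mice (triangles). Plk2 in FC mice at 2.54 and Sipa1l2 in FC mice at -3.41 lie farthest from 0 relative to their bars, and the bars of NS and HC mice are longer throughout.

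Beyond the members, 48 further genes of the pathway were listed by role, of which 47 had a row and 37 were tested in FC mice. Of these 4 were higher and 3 lower in dVenus+ cells, beside 4.35% of all genes in either direction, 1.50% higher and 2.84% lower, and their median log2 fold change was -0.56 beside -0.11 for all genes. DESeq2's Wald test called 13 of these genes in FC mice, 4 higher and 9 lower, beside 16.8% of all genes. The lists were drawn up with earlier results known, and Arc is the reporter gene, so their count is a description. In NS mice 1 of 37 tested genes was called, Arc, and in HC mice 0 of 35 (edgeR), while DESeq2 called 6 and 2.

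Among the other polo-like kinases, Plk5, a brain-expressed relative with a truncated kinase domain, was lower in FC dVenus+ cells. Its median was 1.93 normalized CPM in dVenus+ (0 to 75.6) against 84.7 in dVenus- libraries (0 to 261), with a log2 fold change of -3.23 ± 0.94 (SE, adjusted p = 0.0414, edgeR) and 2 of 12 mice higher. The call was kept in 7 of 24 alternatives and in 4 of 12 fits that left out a mouse. In NS and HC mice Plk5 gave -3.20 ± 1.94 and -2.05 ± 2.95 and did not pass. Plk1, the mitotic kinase, had a read in 6 of 24 FC libraries and was not tested, like Plk4.

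Of the Rap activators, which load Rap with GTP, 7 of 9 were tested in FC mice. Rapgef1 was higher in dVenus+ cells in 11 of 12 mice, with a median of 69.8 against 17.4 normalized CPM (2.31 ± 0.68, adjusted p = 0.0484, edgeR), a call kept in 7 of 24 alternatives and 2 of 12 fits without a mouse. Rapgefl1 went the other way and just missed the threshold (-1.93 ± 0.58, adjusted p = 0.0531, edgeR), with 2 of 12 mice higher. It was called in 6 of 24 alternatives and 3 of 12 fits without a mouse. Of the 7 estimates 3 were above 0, with a median of -0.16. The most abundant activators, Rapgef4 (Epac2) and Dock4, gave 0.0083 ± 0.50 and 0.82 ± 0.52 and did not pass. None of the 3 tested Rap inhibitors outside the SPAR family passed, with Rap1gap at -0.56 ± 0.88 and Rap1gap2 at -1.44 ± 0.73. The remaining Rap2 GTPase, Rap2c, gave -1.47 ± 1.02 and did not pass. In HC mice Rapgef1 gave 1.50 ± 3.71 and did not pass, and in NS mice it missed the count filter.

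Among Rap effectors 1 of 8 tested genes was called. Tnik, a postsynaptic kinase that binds Rap2, was lower in 11 of 12 FC mice, with a median of 48.4 normalized CPM in dVenus+ (1.05 to 275) against 155 in dVenus- libraries (46.4 to 316). Its log2 fold change was -2.12 ± 0.46 (SE, adjusted p = 0.00768, edgeR), and the call was kept in 21 of 24 alternatives and in 12 of 12 fits without a mouse. It was lost without the replicate block and in the fits of 6 and of 4 mice. In NS and HC mice the estimates for Tnik had the other sign, 2.69 ± 1.28 with 3 of 4 and 1.20 ± 1.63 with 3 of 3 mice higher in dVenus+ cells, and did not pass, and the difference between groups was not tested. Braf, a kinase that Rap1 can activate, was at -0.13 ± 0.53.

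The 8 genes that prime SPAR for Plk2 or ubiquitinate it, Cdk5 with its activators and the beta-TrCP ligase, were all tested and none passed in FC mice, with a median of -0.05. The most abundant, Skp1a and Rbx1, gave -0.22 ± 0.35 and 0.70 ± 0.49, and the other ligase genes lay between them. The priming genes were all below 0. Cdk5r1 gave -1.78 ± 0.58 (adjusted p = 0.0777, edgeR), with 1 of 12 mice higher, and was called in 2 of 24 alternatives. Cdk5 gave -1.34 ± 0.58 and Cdk5r2 -0.72 ± 0.62 (adjusted p = 0.216 and 0.594, edgeR). Of other Plk2 substrates and partners 4 of 6 were tested and none was called. Nsf, a vesicle fusion ATPase that binds Plk2, was lower in 11 of 12 mice with a median of 614 against 1055 normalized CPM, and its log2 fold change of -0.93 ± 0.26 had an adjusted p of 0.0339 but missed the threshold of 1 in size. Rasgrf1, a Ras activator, gave -1.07 ± 0.37 (adjusted p = 0.0996). In NS and HC mice Nsf gave -1.07 ± 0.55 and -1.23 ± 0.84 and did not pass.

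Of 7 other genes known for homeostatic scaling 6 were tested in FC mice and 4 were called. Bdnf, the neurotrophin, was higher in 12 of 12 FC mice, with a median of 521 normalized CPM in dVenus+ (185 to 821) against 80.7 in dVenus- libraries (22.6 to 202) and a log2 fold change of 2.49 ± 0.33 (SE, adjusted p = 5.26e-05, edgeR). The pentraxins, secreted proteins that cluster AMPA receptors, went opposite ways. Nptx2 was higher in 11 of 12 mice (5.50 ± 1.02, adjusted p = 0.00117) and Nptx1 lower in 11 of 12 (-1.86 ± 0.34, adjusted p = 0.00172). Arc was higher in 12 of 12 (8.75 ± 0.95, adjusted p = 6.49e-07), as the choice of cells sets. Homer1 and Camk4 did not pass. All 4 calls were kept in the 12 fits that left out a mouse and lost in the 4 mice of 1 ID series, and that of Nptx2 also in the fit of 6 mice. In NS and HC mice Bdnf gave 3.48 ± 1.06 and 1.99 ± 1.30, and Nptx2 7.34 ± 2.36 and 3.06 ± 2.82. Nptx1 gave -0.86 ± 0.75 and -1.37 ± 0.87 there. These estimates had the sign of those in FC mice and did not pass, and the difference between groups was not tested.

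**Figure D4:**
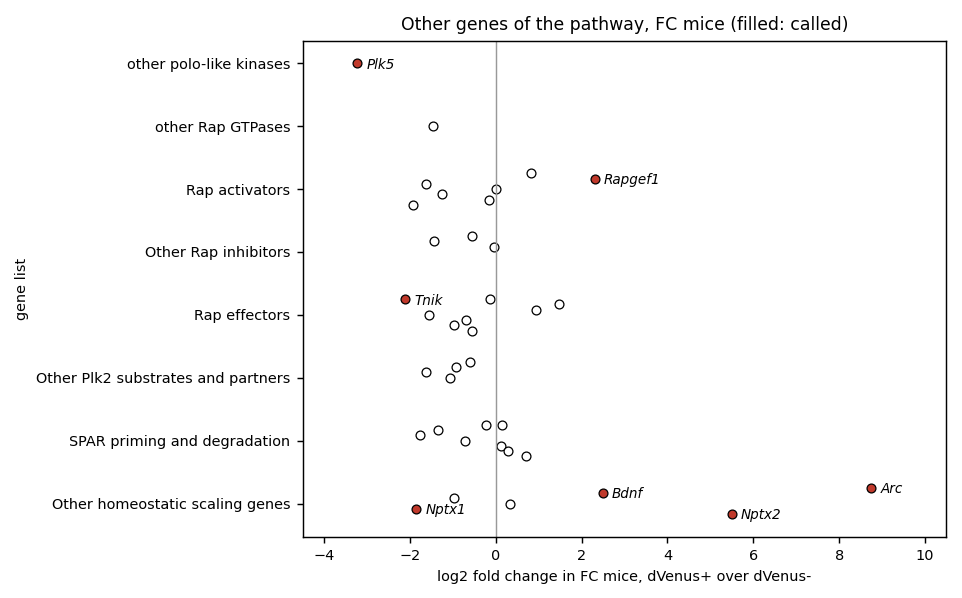
Each point is the log2 fold change of a tested pathway gene in FC mice, by list. Filled points passed the test and are named, 4 of them above 0 and 3 below, and Plk5 and Rapgef1 have adjusted p of 0.0414 and 0.0484.

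The genes whose within-mouse differences over all 19 mice were most like those of Plk2, among 6621 genes tested in all 3 groups, were Acp1 (Spearman rho = 0.79), Vkorc1 (0.75), Psmc2 (0.73), Pik3ip1 (0.73) and Ggt7 (0.72). None of these 5 was called in FC mice. For Sipa1l2 they were Fam65a (rho = 0.83), Ptdss2 (0.82), Nsg1 (0.79), Ablim1 (0.77) and Wscd2 (0.75), of which Wscd2 was called in FC mice (-3.30 ± 0.80, adjusted p = 0.0127, edgeR). Plk2 and Sipa1l2 had a rho of 0.19 with each other, and Plk2 and Rap1b one of -0.56. These are descriptions of 19 points that pool the 3 training histories and share libraries and depth. The named genes are the highest of 6621, and picking the highest of so many gives a high rho among unrelated genes too.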

How the data were processed

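The counts that the authors deposited are whole numbers of reads per gene and library, without normalization. Per the study's methods, single 50-base reads of Smart-seq2 cDNA were aligned to mm10 with TopHat2 2.0.13, and uniquely aligned reads were assigned to NCBI genes with HTSeq 0.6.0. Entries that name no gene were left out, among them reads outside genes, which came to 16.4% to 59.7% of uniquely aligned reads. Libraries were grouped by their titles and characteristics. The members, lists and tests were chosen with earlier results of these data known.

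Each group was fitted alone with edgeR 4.0.16 in R 4.3.3 (TMM normalization, mouse as a block, quasi-likelihood test, two-sided). Genes had to reach 10 counts in a number of libraries equal to the mice of the group, 12, 4 or 3. A gene was called at a Benjamini-Hochberg adjusted p under 0.05 over all genes tested and an absolute log2 fold change over 1. Interactions came from 1 fit of all 38 libraries, for genes reaching 10 counts in 3 of them, at an adjusted p under 0.05. SE is the absolute log2 fold change divided by the square root of F. The quasi-likelihood method was the bias-adjusted one of edgeR 4 and not the older one, which is this version's default, a choice made after the results of both had been seen. Plk2 and Sipa1l2 were called by both, and the older method calls 137 genes in FC mice where the method used calls 422. The scripts were tested on simulated counts with 100 genes changed at each size. Changes of 2 and 3 on the log2 scale were called for 19% and 49% of these genes in FC mice. In NS mice 0% and 1% were called, and in HC mice also 0% and 1%. The FC simulation also gave 7 false calls, beside 19 and 49 changed genes called at the 2 sizes. False calls numbered 2 for the HC simulation, beside 0 and 1 changed genes called, and 0 for the NS simulation.

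The block rests on the shared animal. Between the libraries of a mouse, deviations from the group mean correlated at a median of 0.0382 in FC (3 of 12 mice over 0.1), -0.0167 in NS (0 of 4) and 0.0283 in HC mice (0 of 3). Gene positions are from GENCODE M21 and upstream sequences from RefSeq, both of GRCm38, and 8 of 9 members had a sequence. Named genes are the members, every listed pathway gene called in any group, the 2 most abundant of each list, the 5 genes most like Plk2 and Sipa1l2, and Arc. Homer1, Camk4, Plk4, Rapgefl1, Cdk5, Cdk5r1 and Cdk5r2 were named after their values were seen. Alternatives were DESeq2 1.42.0 and its size factors, other count filters, no block, fewer mice, 2 covariates and other pseudocounts. Leaving out mice 06, 07 and 14 was added after seeing the data.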

Additional observations from a re-analysis of the deposited data

Results flagged for a closer look

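In the NS groups of 4 libraries, 6 of 17 sets of member values had 1 library far from the others by Dixon's test at 95%. For normally distributed values chance gives about 1 in 20, a rate that need not hold for these levels. Plk2 in dVenus- cells was at 17.5 normalized CPM in mouse 18 and at 103 to 113 in the others, and Rap1b was at 156 in dVenus+ and 15.7 in dVenus- cells of mouse 20, the highest of both. Rap2b was at 117 in dVenus+ cells of mouse 18 and at 150.2 in dVenus- cells of mouse 19, both the highest of their groups. Plk3 in dVenus+ cells, at 0.135 in mouse 18 and 0 elsewhere, rests on a single count. Without mouse 18 the log2 fold change of Plk2 in NS mice was 0.29, and without mouse 20 that of Rap1b was 3.74, and neither passed.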

How the results depend on the processing

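Plk2 was called in FC mice in 23 of 24 alternatives and Sipa1l2 in 22, with log2 fold changes of 2.33 to 2.63 and -3.99 to -2.48. Without the mouse as replicate block they were 2.39 and -2.86, and both passed. With 6 mice of 1 ID series 1 member was called and Sipa1l2 (-3.69) was not, and with 4 mice 0 were called, with 2.55 for Plk2 and -2.48 for Sipa1l2. These fits hold fewer mice. DESeq2's Wald test called 1 member in NS mice. Other FC estimates changed sign as follows: Sipa1l1 to 0.0098, Rap1a to -0.40 and Rap2b to -0.25 in the 4 mice, and Sipa1l3 to 0.23 in the 6 mice, 0.10 without mice 03 and 05 and 0.037 with genes detected as covariate. In NS mice Rap1a was -0.070 without the block. Leaving out each mouse in turn turned signs in NS mice for Sipa1l1 (-0.99 to 0.86), Sipa1l2 (-2.31 to 0.55), Sipa1l3 (-0.11 to 1.74), Rap1a (-1.23 to 1.57) and Rap2a (-0.28 to 1.75). In HC mice it did so for Plk2 (-0.20 to 2.07), Sipa1l1 (-2.39 to 2.05), Sipa1l2 (-3.93 to 1.39), Rap1b (-4.00 to 2.06) and Rap2a (-3.74 to 0.82). The within-mouse difference ran from 1.02 to 1.54 for Plk3 and from 0.92 to 1.51 for Rap1b, whose exact permutation p was 0.0425 at a pseudocount of 5 (0.998) and 0.0215 to 0.0449 without mouse 06, 13 or 14. The cause was not tested.

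The calls over all genes in FC mice, 422, were 137 with the older edgeR method, 1635 with DESeq2, 15 and 12 in the 6 and 4 mice, 277 without mice 03 and 05 and 154 without mice 06, 07 and 14. In NS mice the 4 calls became 11 with DESeq2's size factors, 8 at 50 counts, 13 without the block, 1 without a filter, 0 with the older method and 666 with DESeq2. In HC mice the 0 calls became 3 at 50 counts, 2 with the older method and 625 with DESeq2. The interaction called no member in any of 4 alternatives, and without the block it called 14 genes against NS and 8 against HC mice.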
